A study of Mus musculus with 20 samples.

Results

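Natural killer (NK) cells act on other immune cells largely through the proteins they secrete, and 10 genes for such proteins were followed here in spleen NK cells of mice given ptaquiloside, selenium or both. They were interferon gamma (Ifng), tumour necrosis factor (Tnf), the chemokines Ccl3, Ccl4, Ccl5 and Xcl1, the growth factors Csf1 and Csf2, and the inhibitory cytokines Il10 and Tgfb1. They were picked by gene name, with earlier results of these data known. The array carried 12 probes for these 10 genes, out of 41174 probes with 28307 gene names. All 12 passed the detection filter, as did 25027 probes in all.

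The study used 20 male C57BL/6 mice in 4 groups of 5. The agents were ptaquiloside (5.3 mg/kg), selenium (1.3 mg/kg) or the combination at the same doses, and control animals got water. Every group was dosed each day by gavage for 14 days. Ptaquiloside, a toxin that bracken fern makes, is a carcinogen, and antioxidant enzymes need the trace element selenium. NK cells were then taken from the spleen with a magnetic kit that removes the other cells and leaves the NK cells unlabelled, and each mouse was 1 independent experiment hybridised to 1 single-colour array. Because these were bulk RNA samples, fewer cells of a type and less RNA per cell cannot be told apart in any value below.

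NK cells transcribe Ifng and the chemokine genes at rest and after activation by cytokines such as interleukin 12 and interleukin 18, or through activating receptors. Interferon gamma activates macrophages and raises antigen presentation, TNF induces inflammatory gene expression through NF-kB, and the chemokines CCL3, CCL4 and CCL5 draw in other leukocytes. XCL1 attracts the XCR1-bearing dendritic cells that cross-present antigen. CSF1 (M-CSF) sustains macrophages, CSF2 (GM-CSF) acts on granulocytes, macrophages and dendritic cells, and IL-10 and TGF-beta restrain immune responses.

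Each gene was read through 60-base probes of the transcript sense, and the first 30 bases of those on which the results below turn are shown 5′ to 3′. Ifng and Ccl5 each had a pair of probes to different stretches of the same transcript, so their sequences show what was compared within a gene. The positions are those given in the scanner files for mouse build mm9, and exon and UTR annotation of that build was not used here.
Ifng, upstream probe A_51_P220976: acagccaagcggctgactgaactcagattg
Ifng, downstream probe A_52_P68893: cttccctatacagctgaaaactgtgactac
Ccl5, upstream probe A_51_P485312: atcaactatttggagatgagctaggataga
Ccl5, downstream probe A_52_P638459: tctcagctgctccgaggctctgcacagcaa
Tnf, probe A_51_P385099: tgggctttccgaattcactggagcctcgaa
Csf1, probe A_51_P195506: tgtggggcttacttagccttctggttacag
Csf2, probe A_51_P171075: tctgaaaacgctgactcagcttggacagcg
Ccl4, probe A_51_P509573: tattATTTAtgttttagttataggacgcgt

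The capitals in the Ccl4 probe mark ATTTA, the core of the AU-rich elements that shorten the life of many cytokine messages. Within the full 60 bases, ATTTA lay in the probes of Ccl4 and Il10 and in the downstream Ifng probe, and in 9.16% of all 41174 probes. The upstream Ifng probe covers chr10:117882614-117882673 on the plus strand and the downstream one chr10:117882841-117882900, with their ends 227 bases apart. The upstream Ccl5 probe covers chr11:83339447-83339502 on the minus strand and the downstream one chr11:83339296-83339355. The Tnf probe covers chr17:35336795-35336854 on the minus strand and the Csf1 probe chr3:107544333-107544392 on the minus strand. The Csf2 probe was placed at chr11:54060772-54060799 on the minus strand, which accounts for only 28 of its 60 bases. The Ccl4 probe covers chr11:83478052-83478111 on the plus strand. The remaining probes lie at chr11:83461358-83461417 (Ccl3, minus strand), chr1:166862020-166862079 (Xcl1, minus strand), chr1:132920943-132921002 (Il10, plus strand) and chr7:26489877-26489936 (Tgfb1, plus strand).

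Values are log2 of the scanner's processed signal minus the log2 of that array's 75th percentile, so a probe at 0 was as bright as that percentile. Levels are compared between mice for the same probe only, since probes differ in binding. Each of the 5 slides held the mouse of 1 number from every group, and each treatment sat at a fixed place on all slides, so that place and treatment cannot be told apart. The array of ptaquiloside mouse 4 stood apart. Its 75th percentile was 10.5 scanner units against 45.5 to 133 on the other 19 arrays, 36.2% of its spots were well above background against 51.7% to 60.9%, and its correlation with the other arrays was 0.458 to 0.662 against 0.892 to 0.991 among them. Results are therefore given with and without the array of ptaquiloside mouse 4. The lowest 75th percentile among the other 19, at 45.5, was that of mouse 5 given both agents, and the next was 75.35. That array's highest correlation with any other was 0.944, and it is kept in both readings. NK cell markers were well above background on 18 to 20 arrays, with Ncr1, Klrb1c, Nkg7 and Prf1 on all 20. Of the 10 T cell markers, 9 were so on 16 to 20 arrays, Cd3e among them, and Themis on 0. Markers of B cells, macrophages, neutrophils and other cells were also detected, and levels of some are given beside the results below.

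No cytokine or chemokine gene passed the test in any comparison. With limma across all 25027 probes and Benjamini-Hochberg adjustment at 0.05, 0 of the 12 probes were called. This held when ptaquiloside mice, selenium mice and mice given both agents were each set against control mice, when both agents were set against ptaquiloside or against selenium alone, and for the interaction. The share of all tested probes called was 0% in each of these 6 comparisons as well, with all arrays and without ptaquiloside mouse 4. Per spot, the methods' t-test called 0 of 43379 spots after adjustment, in all 5 pairs of groups set against each other. Taking the 6 comparisons in the order just given, and counting below an unadjusted p of 0.05, limma counted 2, 0, 0, 1, 0 and 1 of the 12 probes with all arrays, where 1.68%, 1.08%, 0.228%, 2.61%, 0.631% and 1.36% of all probes did so. Without ptaquiloside mouse 4 the counts were 1, 0, 0, 2, 0 and 2 of 12, against 1.67%, 2.73%, 0.659%, 2.95%, 1.77% and 2.45% of all probes. The adjusted p-values of the 12 probes lay between 0.8 and 1 in both readings.

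With the slide as a block, which takes out what the 4 mice of a slide share, the counts below an unadjusted p of 0.05 were 2, 2, 0, 1, 1 and 2 of 12, against 2.78%, 1.92%, 0.42%, 4.32%, 1.19% and 2.27% of all probes. Leaving out ptaquiloside mouse 4 as well, they were 3, 4, 0, 3, 4 and 5 of 12, against 2.61%, 5.49%, 1.45%, 4.56%, 3.75% and 4.36%. The lowest adjusted p of a member in these 2 fits was 0.671. Limma's F test for any difference among the 4 groups had its smallest member p-values at Csf1 (0.0354 with all arrays, 0.0128 with the block) and, without ptaquiloside mouse 4, at Tnf (0.00931). With the block and without that mouse, the p-values below 0.05 were 0.00716 for Csf1, 0.0143 and 0.0206 for the upstream and downstream Ifng probes, 0.0145 for Tnf and 0.0229 for Csf2, each with an adjusted p of 0.998. The shares of all probes below 0.05 were 1.02% with all arrays, 2.05% with the block, 1.69% without that mouse and 3.78% with both steps.

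**Figure D1:**
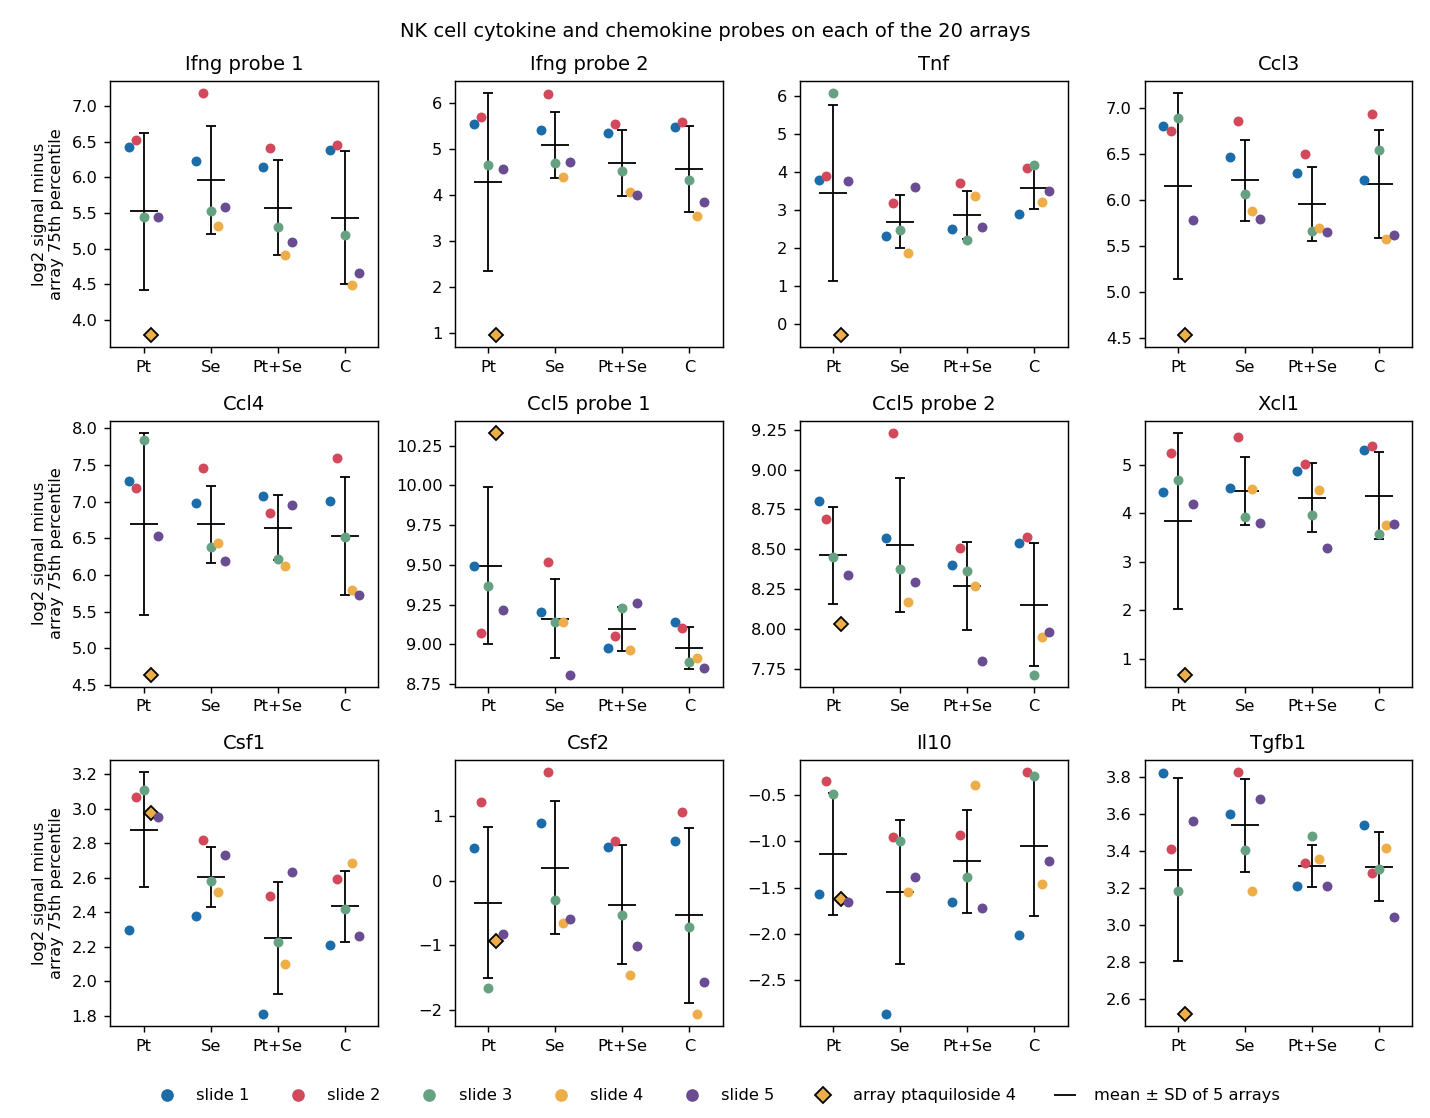
Log2 level of each of the 12 probes (vertical axes, log2 signal over the array's 75th percentile) in every mouse of the 4 groups (horizontal axis), coloured by slide, with a black bar for the mean and its SD over 5 arrays. Probe 1 of Ifng and of Ccl5 is the downstream one. The lowest Ifng, Tnf and Xcl1 values are all from ptaquiloside mouse 4 (diamond), and the Csf1 values of mice given both agents lie at or below 2.63.

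Interferon gamma did not separate the groups, and its level followed the slide far more than the treatment. At the downstream probe the mice numbered 1 to 5 had 6.42, 6.53, 5.44, 3.79 and 5.44 after ptaquiloside, and 6.22, 7.18, 5.53, 5.32 and 5.59 after selenium. The mice given both agents had 6.15, 6.41, 5.31, 4.91 and 5.09, and the control mice 6.38, 6.45, 5.19, 4.49 and 4.65. All 4 groups overlapped, with mice 1 and 2 high in each group and mice 3 to 5 low. Group means were 5.97 ± 0.76 with selenium, 5.57 ± 0.67 with both, 5.52 ± 1.10 with ptaquiloside and 5.43 ± 0.94 in control mice (SD, n = 5 each). No neighbours in that order differed beyond these SDs, which include the differences between slides.

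The Ifng difference between selenium and control mice was 0.54 ± 0.53 (SE) on the log2 scale, with an unadjusted limma p of 0.323, and selenium mice were higher on 4 of 5 slides. The upstream probe gave 0.52 for the same comparison. With the slide as a block and ptaquiloside mouse 4 left out, the SE of the 0.54 dropped to 0.15 and the unadjusted p to 0.00382. Its adjusted p was 0.832, and in that fit 5.49% of all probes lay below an unadjusted p of 0.05. Mice given both agents were lower than selenium mice on 5 of 5 slides at both probes, by a mean log2 difference of -0.40 downstream and -0.39 upstream. The unadjusted limma p-values were 0.463 and 0.587. Counts of slides with 1 sign in a comparison, here and below, have no share over all probes beside them.

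For ptaquiloside the Ifng result turned on mouse 4. The difference from control was 0.09 ± 0.53 downstream and -0.27 ± 0.70 upstream with all arrays. Without mouse 4 it was 0.53 (unadjusted p = 0.285) and 0.56 (unadjusted p = 0.257), with ptaquiloside mice higher on 4 of 4 slides. At the upstream probe mice 1 to 5 had 5.55, 5.69, 4.64, 0.97 and 4.57 after ptaquiloside, 5.40, 6.18, 4.70, 4.39 and 4.71 after selenium and 5.35, 5.54, 4.51, 4.05 and 4.00 with both, against 5.47, 5.58, 4.33, 3.54 and 3.85 in control mice. Ptaquiloside mouse 4 lay far below the other 19 mice, whose values overlapped across groups.

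Tnf values also turned on the dim array. Ptaquiloside mice 1 to 5 had 3.80, 3.91, 6.08, -0.29 and 3.77, which includes the highest and the lowest value of all 20 mice. Selenium mice had 2.31, 3.19, 2.46, 1.88 and 3.61, mice given both agents had 2.51, 3.71, 2.22, 3.37 and 2.56, and control mice had 2.90, 4.12, 4.18, 3.21 and 3.50. Means were 3.45 ± 2.31 with ptaquiloside, 2.69 ± 0.70 with selenium, 2.87 ± 0.63 with both and 3.58 ± 0.56 in control mice (SD, n = 5 each). All 4 groups overlapped.

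With all arrays Tnf differed by -0.58 between mice given both agents and ptaquiloside mice. Without ptaquiloside mouse 4 that difference was -1.51 ± 0.48 (95% interval -2.52 to -0.51), a fold of 0.35, with an unadjusted limma p of 0.00529. Mice given both agents were lower on 4 of 4 slides, and the remaining 4 ptaquiloside values all lay above the 5 values with both agents, a lack of overlap in that direction shown by 0.462% of all probes. The adjusted p was 0.999, as for the other 11 probes in that comparison. On slides 1, 2, 3 and 5 the difference was -1.29, -0.20, -3.86 and -1.21, so slide 3 held the largest share of it, and on slide 4 it was 3.67. Without mouse 4, all 10 neutrophil markers were higher with both agents than with ptaquiloside (median 0.59), with summed levels of 319 to 727 against 209 to 372, and all 10 B cell markers were higher as well (median 0.46). Their part in this Tnf difference was not tested.

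Selenium mice had less Tnf signal than control mice on 4 of 5 slides, with differences of -0.59, -0.93, -1.72, -1.34 and 0.11 on slides 1 to 5. The mean difference was -0.89 ± 0.75 with an unadjusted p of 0.25, and the SE was 0.45 and the p 0.0626 once ptaquiloside mouse 4 no longer entered the pooled spread. The neutrophil marker sum, in multiples of each array's 75th percentile, was 289 to 802 in selenium mice against 241 to 452 in control mice, and 9 of 10 neutrophil markers had a positive difference. The B cell marker sum was 7.92 to 21.3 in selenium mice against 17.3 to 47.3 in control mice, and all 10 B cell markers had a negative difference. The macrophage and monocyte marker sum was 356 to 542 against 468 to 650, and 9 of 12 of these markers had a negative difference (median -0.40). All 9 T cell markers tested had a negative difference as well (median -0.49). The part of these cells in this Tnf difference was not tested.

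**Figure D2:**
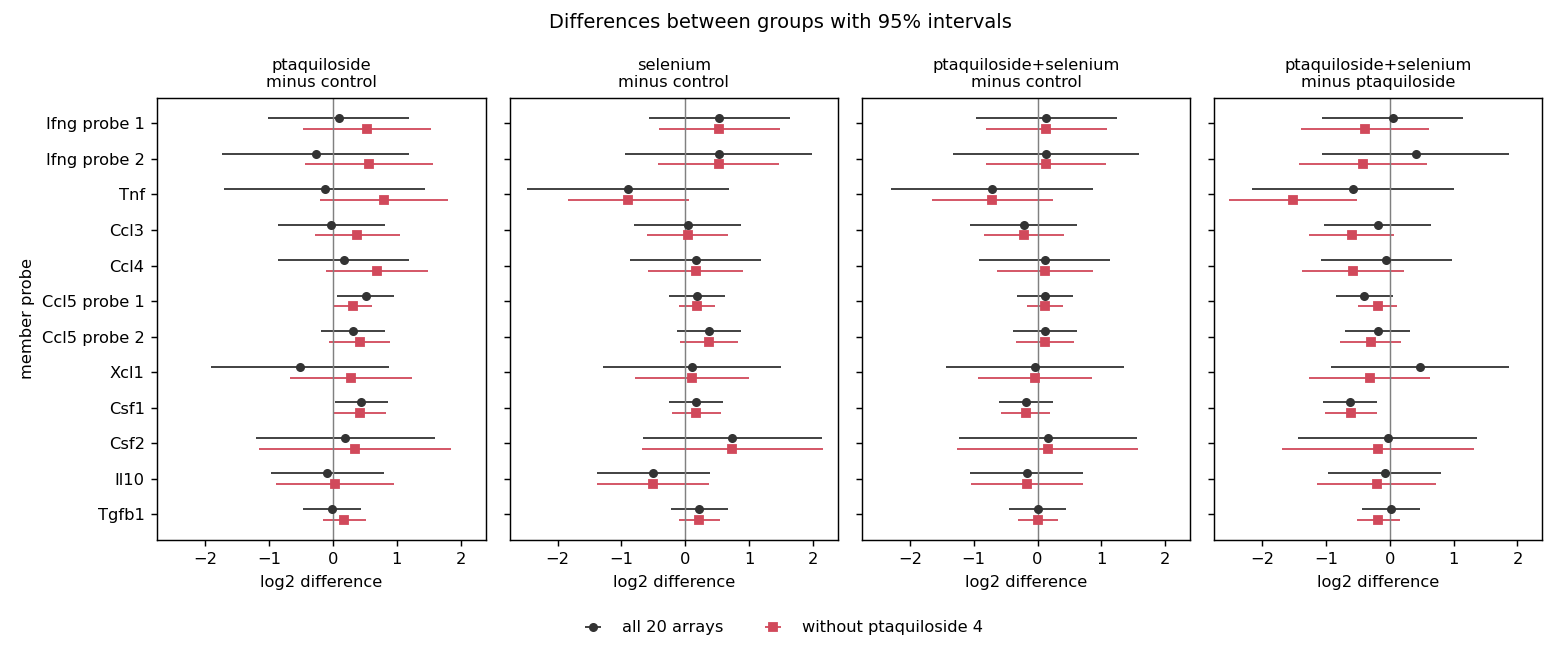
Log2 difference (horizontal axes) of each of the 12 probes (vertical axis) in 4 comparisons, with 95% confidence intervals as bars, with all 20 arrays (circles) and without ptaquiloside mouse 4 (squares). The Csf1 interval for both agents against ptaquiloside lies below 0 in both readings, while the Tnf interval does so only without that mouse, and no adjusted p was below 0.05.

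Among the chemokines, Ccl3 and Ccl4 are neighbouring genes of near relatives and their probes gave similar patterns. Ccl3 in mice 1 to 5 was 6.81, 6.75, 6.89, 4.53 and 5.79 after ptaquiloside, 6.47, 6.86, 6.07, 5.88 and 5.80 after selenium, and 6.30, 6.50, 5.66, 5.70 and 5.66 with both. Control mice had 6.22, 6.94, 6.55, 5.58 and 5.63. The ranges overlapped in every pair of groups, and the group means ran only from 5.96 ± 0.40 with both agents to 6.22 ± 0.44 with selenium (SD, n = 5 each). Ccl3 was lower with both agents than with selenium alone on 5 of 5 slides, by a mean difference of -0.25. Without ptaquiloside mouse 4, Ccl3 differed by -0.60 between both agents and ptaquiloside, with an unadjusted p of 0.0757.

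Ccl4 was 7.29, 7.19, 7.85, 4.64 and 6.53 after ptaquiloside and 6.99, 7.46, 6.38, 6.44 and 6.19 after selenium. With both agents it was 7.08, 6.85, 6.21, 6.12 and 6.96, and in control mice 7.01, 7.60, 6.51, 5.79 and 5.73. Means of 6.70 ± 1.24 with ptaquiloside, 6.69 ± 0.52 with selenium, 6.64 ± 0.45 with both and 6.53 ± 0.80 in control mice lay within a fraction of their SDs (n = 5 each). The ptaquiloside difference was 0.17 with all arrays and 0.69 without mouse 4, at an unadjusted p of 0.0867. Mouse 4 was the lowest of the ptaquiloside mice for Ccl3 and Ccl4 alike.

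The 2 probes of Ccl5 placed the dim array at opposite ends of its group. At the downstream probe ptaquiloside mice had 9.49, 9.07, 9.37, 10.33 and 9.22, selenium mice 9.21, 9.52, 9.14, 9.14 and 8.81, and mice given both agents 8.98, 9.05, 9.23, 8.96 and 9.26. Control mice had 9.14, 9.10, 8.89, 8.92 and 8.85. Ptaquiloside mouse 4, low for Ifng, Tnf, Ccl3 and Ccl4, was the highest of the 20 here. The ptaquiloside difference was 0.51 ± 0.21 (95% interval 0.07 to 0.96), a fold of 1.43 at an unadjusted limma p of 0.0257, higher on 4 of 5 slides. Without mouse 4 it was 0.31 with a p of 0.0502.

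At the upstream Ccl5 probe ptaquiloside mice had 8.80, 8.69, 8.45, 8.03 and 8.34, against 8.54, 8.58, 7.72, 7.95 and 7.98 in control mice. Here ptaquiloside mouse 4 was the lowest of its group, yet the ptaquiloside mouse was the higher one on 5 of 5 slides, with a mean difference of 0.31 (unadjusted p = 0.216). Without mouse 4 the difference was 0.42 with a p of 0.0864. Selenium mice, with 8.57, 9.23, 8.38, 8.17 and 8.29, were also above their control on 5 of 5 slides, by 0.37. With both agents the values were 8.40, 8.51, 8.36, 8.27 and 7.80, and all 4 groups overlapped.

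Xcl1 was 4.44, 5.25, 4.68, 0.68 and 4.19 in ptaquiloside mice and 4.52, 5.58, 3.93, 4.50 and 3.81 in selenium mice. With both agents it was 4.87, 5.01, 3.97, 4.48 and 3.28, and in control mice 5.30, 5.38, 3.58, 3.77 and 3.79. Ptaquiloside mouse 4 was the lowest of the 20, and the remaining 19 mice lay between 3.28 and 5.58 with all groups overlapping. The ptaquiloside difference was -0.51 ± 0.67 with all arrays and 0.28 without mouse 4, while selenium differed from control by 0.10.

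Csf1 was highest with ptaquiloside alone and lowest with both agents, though without passing the test. Ptaquiloside mice 1 to 5 had 2.30, 3.07, 3.11, 2.97 and 2.96, and selenium mice 2.38, 2.82, 2.58, 2.52 and 2.73. The mice on both agents had 1.81, 2.49, 2.23, 2.10 and 2.63, and control mice 2.21, 2.59, 2.42, 2.69 and 2.26. Means were 2.88 ± 0.33 with ptaquiloside, 2.61 ± 0.17 with selenium and 2.25 ± 0.32 with both, against 2.43 ± 0.20 in control mice (SD, n = 5 each). The ptaquiloside mouse was the highest on slides 2 to 5, and ptaquiloside mouse 1 was the lowest of its group. Mouse 4, dim for most members, sat among the other ptaquiloside mice at 2.97.

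Ptaquiloside mice exceeded control mice in Csf1 on 5 of 5 slides, by 0.09, 0.47, 0.69, 0.29 and 0.69. The mean difference was 0.45 ± 0.20 (95% interval 0.02 to 0.87), a fold of 1.36 with an unadjusted limma p of 0.0393. Without mouse 4 it was 0.42 ± 0.19 with a p of 0.0425. The difference was also positive with median, quantile and normexp processing, between 0.21 and 0.55, and negative, at -0.30, only in the unscaled values of the methods' t-test, where the median of all spots was -0.45. The groups overlapped, since ptaquiloside mouse 1 lay below control mice 2, 3 and 4.

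Among mice given selenium, the Csf1 difference between those with and without ptaquiloside had the opposite sign. Mice given both agents were below selenium mice on 5 of 5 slides, by -0.57, -0.33, -0.35, -0.42 and -0.10, a mean of -0.35 with an unadjusted p of 0.0959. They were also below ptaquiloside mice on 5 of 5 slides, by -0.49, -0.57, -0.88, -0.87 and -0.32. That mean difference was -0.63 ± 0.20 (95% interval -1.05 to -0.21), a fold of 0.647 with an unadjusted p of 0.00573, and -0.60 with a p of 0.00595 without mouse 4. The 6 platelet markers were all lower with both agents than with selenium (median -0.48), with summed levels of 18.5 to 35.2 against 25 to 52.1, while all 10 B cell markers were higher (median 0.92). Against ptaquiloside mice, 5 of 6 platelet markers were lower (median -0.25), all 6 without mouse 4 (median -0.32), and 9 of 10 B cell markers higher (median 0.48).

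The difference between the Csf1 effect of ptaquiloside with and without selenium was -0.80 ± 0.28 (95% interval -1.40 to -0.20), with an unadjusted limma p of 0.0113 and an adjusted p of 0.997. Without mouse 4 it was -0.78 with an unadjusted p of 0.00926. An effect of one sign on all 5 slides without selenium and of the other sign on all 5 slides with it was seen for 39 of 24844 probes, which is 0.157%. On slides 1, 2, 3 and 5 alone, which leave out mouse 4, both Ifng probes and the upstream Ccl5 probe had the same pattern as Csf1. The share of all probes with that pattern on those slides was not computed. With the slide as a block, the interaction had an unadjusted p of 0.00423 and an adjusted p of 0.943, and 2.27% of all probes lay below 0.05 unadjusted. The same interaction was negative for 6 of 6 platelet markers (median -0.36) and positive for 10 of 10 B cell markers (median 1.59) and 6 of 7 erythroid markers (median 0.66). Also positive were 7 of 9 T cell markers (median 0.80), 10 of 12 macrophage and monocyte markers and 8 of 10 neutrophil markers. The same held for 7 of 10 dendritic cell markers and 6 of 6 innate lymphoid cell markers. Of the basophil and mast cell markers, 6 of 8 were negative (median -0.37). NK markers were negative for 8 of 13 (median -0.08), and for 12 of 13 without mouse 4 (median -0.33). The part of these cells in the Csf1 differences was not tested.

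**Figure D3:**
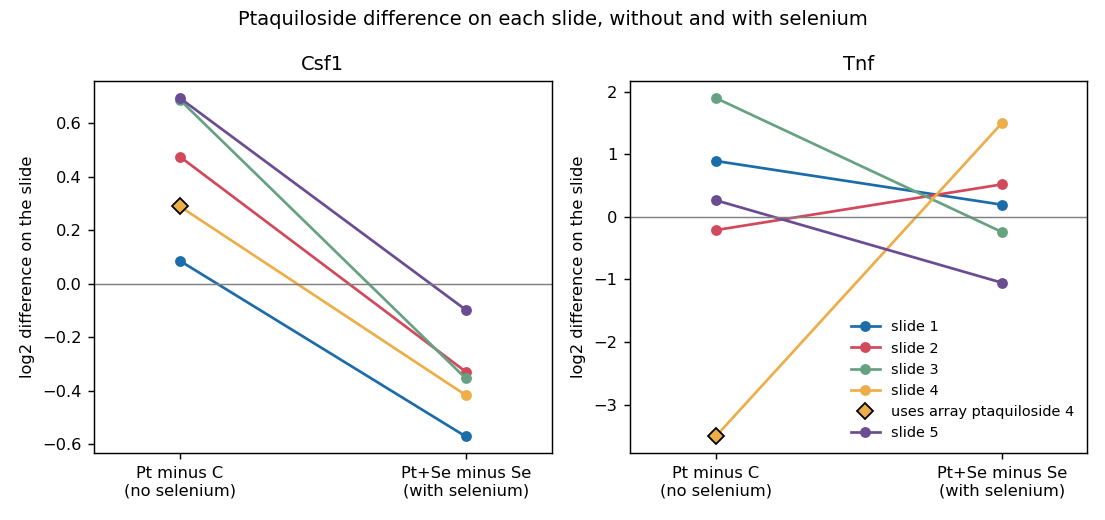
Log2 difference (vertical axes) between the mice of a slide for Csf1 and Tnf, for ptaquiloside minus control on the left of each panel and both agents minus selenium on the right, with a line for each of the 5 slides. The Csf1 differences lie between 0.09 and 0.69 without selenium and between -0.57 and -0.10 with it, and the Tnf difference of slide 4 without selenium, which uses ptaquiloside mouse 4, lies at -3.51.

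Csf2 was well above background on 19 of 20 arrays and varied more between slides than between groups. Ptaquiloside mice had 0.51, 1.21, -1.65, -0.93 and -0.83, selenium mice 0.89, 1.68, -0.30, -0.65 and -0.59, and mice given both agents 0.52, 0.62, -0.53, -1.46 and -1.01. Control mice had 0.61, 1.06, -0.71, -2.06 and -1.56. The groups overlapped fully, and mice 1 and 2 of each group were the high ones. The value that was not well above background was that of ptaquiloside mouse 4.

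The selenium mouse had the higher Csf2 value on 5 of 5 slides, by 0.28, 0.62, 0.41, 1.41 and 0.98 over the control mouse. The mean difference of 0.74 ± 0.67 had an unadjusted limma p of 0.282. Its p was 0.0117 with the slide as a block, where the adjusted p was 1 and 1.92% of all probes lay below 0.05 unadjusted. Mice given both agents were below selenium mice on 5 of 5 slides, by -0.37, -1.06, -0.23, -0.81 and -0.42, with a mean of -0.58. The Csf2 order of means was 0.21 ± 1.03 with selenium, -0.34 ± 1.17 with ptaquiloside, -0.37 ± 0.92 with both and -0.53 ± 1.35 in control mice (SD, n = 5 each). No step exceeded these SDs, but they include the differences between slides and so do not measure the spread within slides.

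Il10 was well above background on 19 of 20 arrays, all but that of ptaquiloside mouse 4. Ptaquiloside mice had -1.57, -0.35, -0.49, -1.62 and -1.65, selenium mice -2.86, -0.95, -0.99, -1.55 and -1.38, and mice given both agents -1.66, -0.93, -1.38, -0.39 and -1.72. Control mice had -2.01, -0.26, -0.30, -1.46 and -1.22. Selenium mice were below control mice on 5 of 5 slides, by -0.85, -0.70, -0.70, -0.09 and -0.17. The mean difference was -0.50 ± 0.42 with an unadjusted p of 0.25, and the groups overlapped. Il10 is also made by macrophages and B cells, and 9 of 12 macrophage and monocyte markers were lower in selenium mice than in control mice, with summed levels of 356 to 542 against 468 to 650. Their part in this Il10 difference was not tested.

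Tgfb1, which encodes a cytokine secreted in a latent form, did not order the groups. Ptaquiloside mice had 3.82, 3.41, 3.19, 2.52 and 3.56, and selenium mice 3.60, 3.82, 3.40, 3.18 and 3.68. Mice given both agents had 3.21, 3.33, 3.48, 3.35 and 3.21, and control mice 3.54, 3.28, 3.30, 3.41 and 3.04. Selenium mice averaged 3.54 ± 0.25, against 3.32 ± 0.11 with both agents, 3.30 ± 0.49 with ptaquiloside and 3.32 ± 0.18 in control mice (SD, n = 5 each). The selenium difference of 0.22 was positive on 4 of 5 slides, and the ptaquiloside difference was -0.02 with all arrays and 0.18 without mouse 4.

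Across the 12 probes the signs of the comparisons with ptaquiloside mice depended on the dim array. Ptaquiloside differences from control were positive for 6 and negative for 6 with all arrays, with a median of 0.04 against -0.02 over all tested probes. Without mouse 4 all 12 were positive, with a median of 0.40 against -0.01 over all probes, 48% of which were positive. In the same reading all 12 differences of both agents from ptaquiloside were negative, with a median of -0.35 against 0.01. These 2 comparisons share the ptaquiloside mice. Selenium minus control was positive at 10 of 12 probes (median 0.18 against -0.0021 over all probes), and both agents minus selenium was negative at 10 of 12 (median -0.24 against 0.01). Both agents against control gave 7 positive and 5 negative differences with a median of 0.06. The interaction was negative at 9 of 12 probes with all arrays (median -0.22 against 0.04 over all probes). Without mouse 4 it was negative at 11 of 12 (median -0.65 against 0.007), so its negative sign was not particular to Csf1. The probes of 1 gene share a transcript and the genes share mice, so these counts are descriptions.

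NK markers were compared in the same contrasts. All 13 NK markers tested had a positive difference in selenium against control mice (median 0.25), and all 13 a negative one in mice given both agents against selenium mice (median -0.13). For ptaquiloside against control, 10 of 13 were negative with all arrays (median -0.15) and 11 of 13 positive without mouse 4 (median 0.14). T cell markers were negative for 9 of 9 and B cell markers for 10 of 10 in selenium against control mice, with medians of -0.49 and -1.03. The NK marker sum was 326 to 791 in ptaquiloside mice, 619 to 987 in selenium mice, 552 to 767 with both and 495 to 849 in control mice, and 636 to 791 in the 4 ptaquiloside mice other than mouse 4. The part of NK cell purity in the cytokine differences between groups was not tested. Correlations of members with marker means across mice are given among the closing observations.

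The slide accounted for most of the spread of several members. Over the 16 arrays of slides 1, 2, 3 and 5, the slide took 85.3% of the variance at the downstream Ifng probe and 86.8% at the upstream one, 85.6% for Csf2, 77.9% for Xcl1, 68.2% for Il10 and 65.5% for Ccl3. The median over all probes was 34.8% for the slide and 11.8% for the group. The group share was largest for Tnf (48.5%), Csf1 (43.7%) and Tgfb1 (39.1%). Mean Ifng at the downstream probe on slides 1 to 5, leaving out ptaquiloside mouse 4, was 6.29, 6.64, 5.37, 4.91 and 5.19, and mean Csf2 was 0.63, 1.14, -0.80, -1.39 and -1.0. For Csf2 the 8 mice of slides 1 and 2 lay between 0.51 and 1.68 and did not overlap the other 11, which lay between -2.06 and -0.30. Xcl1 means were 4.78, 5.31, 4.04, 4.25 and 3.77. The mouse number, its experiment and its slide go together, so these cannot be told apart.

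Ifng and Csf2 had the same slides high and low, and their promoters are shown as the 250 bases before the transcript start in RefSeq on GRCm38.p6, on the gene's strand, with Tnf for comparison. The capitals mark matches to 3 patterns searched on both strands. They are the TATA box (TATAAA), the NFAT core (GGAAA, which reads as its reverse complement when it lies on the other strand) and a loose kappa B pattern, with G at its first 3 bases, C at its last 2 and any 5 bases between. The AP-1 pattern (TGANTCA) was searched as well.
Ifng, chr10:118440796-118441045, plus strand: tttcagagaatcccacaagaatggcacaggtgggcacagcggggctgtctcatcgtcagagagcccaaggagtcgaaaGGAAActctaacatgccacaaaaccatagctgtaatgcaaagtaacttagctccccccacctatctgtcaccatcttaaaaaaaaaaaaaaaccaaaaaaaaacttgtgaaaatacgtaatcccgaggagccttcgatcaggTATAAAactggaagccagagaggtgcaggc
Csf2, chr11:54249900-54250149, minus strand: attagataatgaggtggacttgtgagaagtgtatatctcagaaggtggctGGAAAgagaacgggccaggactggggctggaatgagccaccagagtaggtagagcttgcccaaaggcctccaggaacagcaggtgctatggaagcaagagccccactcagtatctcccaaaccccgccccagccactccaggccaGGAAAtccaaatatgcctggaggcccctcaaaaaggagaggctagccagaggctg
Tnf, chr17:35202008-35202257, minus strand: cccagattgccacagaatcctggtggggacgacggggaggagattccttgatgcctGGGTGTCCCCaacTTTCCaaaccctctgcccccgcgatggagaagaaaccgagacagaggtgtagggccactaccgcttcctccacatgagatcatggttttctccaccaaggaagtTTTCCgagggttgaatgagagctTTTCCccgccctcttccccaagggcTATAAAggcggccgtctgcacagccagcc

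The Ifng window held a TATA box match 30 to 25 bases before the start and an NFAT core match 172 to 168 bases before it. The Csf2 window held NFAT core matches at 200 to 196 and at 55 to 51 bases and none of the other patterns. The Tnf window held a TATA box match at 29 to 24 bases, a kappa B match at 194 to 185 bases that reads on both strands, and NFAT core matches on the other strand that began 181, 77 and 54 bases before the start. The AP-1 pattern was in none of the 7 member promoters found in the table. Of all 32851 promoters of that length, 12.4% held the TATA box, 45.8% the kappa B pattern, 55.6% the NFAT core and 6.75% the AP-1 pattern. A match describes the letters in the window and is not a shown binding site.

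Relations among the 10 genes were computed over 19 mice, leaving out ptaquiloside mouse 4, after taking out each slide's mean, because Ifng and Csf2 fell into separate clusters by slide. Of 45 gene pairs, 1 passed Benjamini-Hochberg adjustment. Ccl3 and Ccl4 had a Pearson r of 0.716 (permutation p = 0.00085, adjusted 0.0382, 100000 permutations within slides) and a Spearman rho of 0.639 (permutation p = 0.0024, adjusted 0.108). Without the 2 mice farthest from the Ccl3 median the r was 0.474, so the relation rests in part on those mice. Ifng and Csf2 kept an r of 0.70 within slides (permutation p = 0.00555, adjusted 0.125) with a rho of 0.67 (permutation p = 0.0073), and 0.612 without the 2 farthest mice.

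Tnf went with Il10 at an r of 0.618 (permutation p = 0.0141, adjusted 0.159) and a rho of 0.732 (permutation p = 0.00726), with 0.624 without the 2 farthest mice. It went against Csf2 at an r of -0.666 (permutation p = 0.0122, adjusted 0.159) and a rho of -0.574 (permutation p = 0.03), with -0.53 without the 2 farthest mice. Neither relation passed the adjustment. The relations were also taken in 2 sets of slides chosen after seeing the data. Within these sets the values were not centred on slides, and mice were permuted across slides. Differences between the slides of a set therefore enter these relations. On slides 1 and 2 alone, with 8 mice, Ccl5 and Tgfb1 was the pair that passed, at an r of 0.95 (exact permutation p = 0.000422, adjusted 0.019) and a rho of 0.929 (exact permutation p = 0.00223, adjusted 0.10), with an r of 0.887 without the 2 farthest mice. The same pair had an r of -0.144 on slides 3 to 5 (permutation p = 0.668) and, slide-centred over 19 mice, 0.397 (permutation p = 0.166), which was 0.087 without the 2 farthest. On slides 1 and 2 Ifng and Csf2 had an r of 0.836 (exact permutation p = 0.0167, adjusted 0.188), which was 0.329 without the 2 farthest mice, and Ccl3 and Ccl4 one of 0.812 (exact permutation p = 0.0158, adjusted 0.188). On slides 3 to 5, with 11 mice, 0 of 45 pairs passed by the permutation test, with Ifng and Csf2 at an r of 0.763 (permutation p = 0.0064, adjusted 0.144) and Ccl3 and Ccl4 at 0.751 (permutation p = 0.015, adjusted 0.202).

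**Figure D4:**
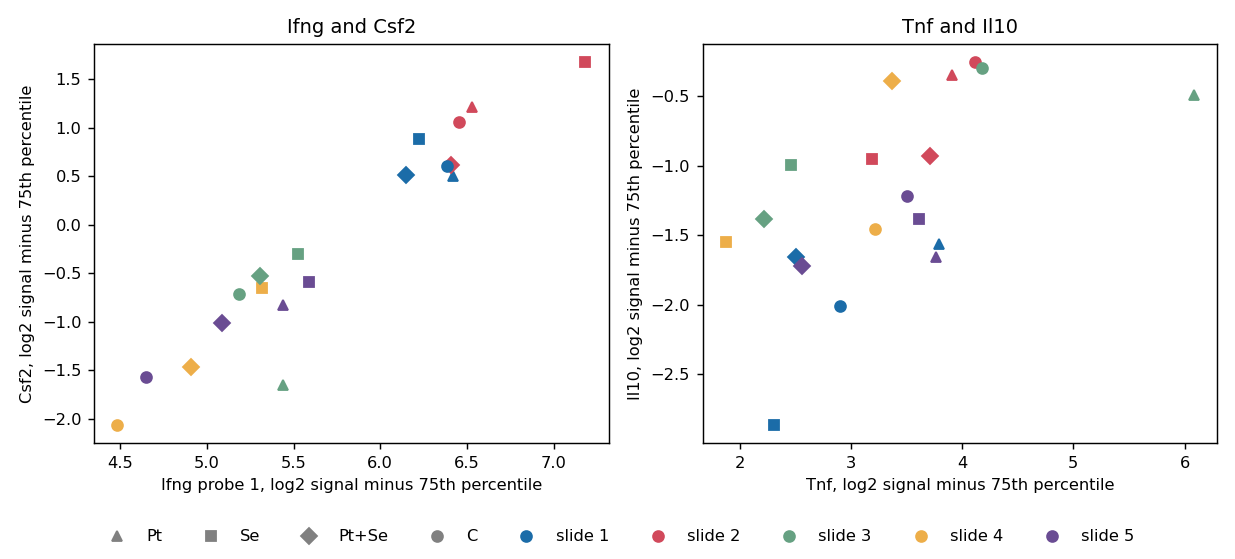
Log2 signal minus the array's 75th percentile of Csf2 against the downstream Ifng probe, and of Il10 against Tnf, with a point for each of 19 mice, its shape giving the group and its colour the slide. The 8 mice of slides 1 and 2 lie at Csf2 values of 0.51 to 1.68, apart from the other 11.

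The genes whose level followed a member most closely over the 19 mice, of 17334 genes compared, are given by Pearson r, with the slide-centred r after it. They are a description, since all genes share the same libraries and slides. Ifng was followed by Csf2 (0.956 and 0.70), by Bhlhe40, a transcription factor of activated lymphocytes (0.943 and 0.76), and by Cd151, a tetraspanin (0.943 and 0.696). After Ifng, Csf2 was followed by Gjb2, a gap junction connexin (0.948 and 0.764), and Cd151 (0.938 and 0.664). Tnf was followed by Cxcl2, a neutrophil-attracting chemokine (0.919 and 0.944), Tnfsf9, the ligand of 4-1BB (0.876 and 0.917), and Ccrl2, an atypical chemokine receptor (0.864 and 0.911). For these 3 genes the slide-centred value was the larger one.

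Ccl3 was followed by Rab11fip1 (0.943 and 0.83), by Nfkbia, which encodes an NF-kB inhibitor (0.927 and 0.795), and by Nfkbiz, a nuclear relative of it (0.902 and 0.698). Nfkbia also followed Ccl4 (0.917 and 0.873), after Jund, an AP-1 subunit (0.935 and 0.932), and before Adat2 (0.893 and 0.873). Ccl5 went with H2-K1, an MHC class I gene (0.884 and 0.87), with 1700037C18Rik (0.864 and 0.881) and with Pkp3 (0.847 and 0.882), and Xcl1 with Rae1 (0.945 and 0.891), Dusp16, a MAP kinase phosphatase (0.938 and 0.761), and Trmt2b (0.924 and 0.862). Csf1 was followed by C230098O21Rik (0.741 and 0.729) and Gsx1 (0.726 and 0.547). Il10 was followed by Il1b, an inflammatory cytokine of myeloid cells (0.824 and 0.642), and by the formyl peptide receptors Fpr1 (0.797 and 0.591) and Fpr2 (0.797 and 0.657). Tgfb1 was followed by Jade2 (0.801 and 0.789), Coa4 (0.799 and 0.819) and Prr5l (0.776 and 0.788).

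The probe pairs of Ifng and Ccl5 differed by more on the dim array than on any other. The downstream minus upstream difference of Ifng was 0.80 to 1.09 in 19 mice and 2.82 in ptaquiloside mouse 4. For Ccl5 it was 0.29 to 1.46 in 19 mice and 2.30 in that mouse. The highest of the 19 values, for both genes, was that of mouse 5 given both agents. Over 1685 genes with probe pairs within 2000 bases, the median shift of this difference on the array of ptaquiloside mouse 4 was -0.15, and 45.9% of those genes shifted upwards. Csf2 and Il10 were each printed as 10 spots, whose SD was 0.50 and 0.63 on that array, against at most 0.16 and 0.18 on any other.

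**Figure D5:**
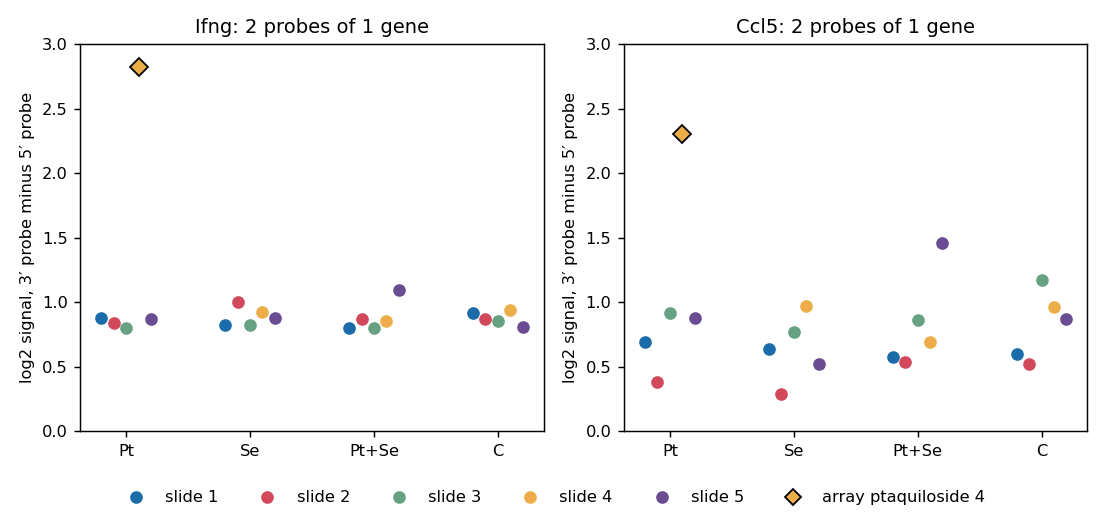
Downstream (3′) minus upstream (5′) probe in log2 units (vertical axes) for Ifng and Ccl5 in each group (horizontal axes), with a point for each mouse coloured by slide. Ptaquiloside mouse 4 (diamond) lies at 2.82 for Ifng and 2.30 for Ccl5, above the other 19 mice.

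Genes that act with these cytokines were read from 8 lists, with 1 probe per gene and 17467 genes tested. Limma's adjusted threshold was passed by 0 genes of any list in ptaquiloside or selenium against control mice, and the methods' t-test called 0 spots. Below an unadjusted p of 0.05 limma counted 1 of 33 other cytokine and chemokine genes for ptaquiloside, against 1.5% of all genes tested. For selenium it counted 1 of those 33 and 1 of 20 interferon gamma targets, against 1.05%. Without ptaquiloside mouse 4 it counted 1 of the 20 targets for ptaquiloside. For selenium it then counted 3 of the 20, 1 of 28 inducing receptors and transcription factors and 1 of the 33. The shares of all probes in that reading were 1.67% and 2.73%. The adjusted p-values of the genes named next were 0.8 or above.

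Of the receptors for the members, 15 of 17 listed genes were tested, and 14 had a negative difference in ptaquiloside against control mice (median -0.37, against -0.0039 over all genes). Without mouse 4 it was 5 of 15 (median 0.01). The smallest p-values belonged to Tnfrsf1a, a TNF receptor, at -0.61 (unadjusted p = 0.0911) and -0.21 without mouse 4, and to Ccr3, a receptor of CCL5, at -0.66 (unadjusted p = 0.118) and -0.70 without it. In selenium against control mice 8 of 15 were positive (median 0.03, against 0.01 over all genes). Csf2ra, a chain of the GM-CSF receptor, was at -0.37 (unadjusted p = 0.13) and Csf1r, the CSF1 receptor of macrophages, at -0.30 (unadjusted p = 0.454).

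Of 20 interferon gamma targets tested, 18 had a negative difference after ptaquiloside with all arrays (median -0.27), against 7 of 20 without mouse 4 (median 0.05). Psmb8, an immunoproteasome subunit, differed by -1.04 with that mouse (unadjusted p = 0.141) and by -0.04 without it. Tap1, a peptide transporter, differed by -0.81 (unadjusted p = 0.186) and by -4e-04. In selenium against control mice 16 of the 20 were positive (median 0.28), and in mice given both agents against selenium mice 19 were negative (median -0.34). Iigp1, an interferon-induced GTPase, differed by 0.89 in selenium against control mice (unadjusted p = 0.089), while Ciita, the master regulator of MHC class II genes, differed by -0.54 (unadjusted p = 0.036).

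Of the 14 TNF and NF-kB targets, 13 had a negative difference after ptaquiloside with all arrays (median -0.35) and 4 without mouse 4 (median 0.16). Tnip1, an inhibitor of NF-kB signalling, was at -0.54 (unadjusted p = 0.166) and -0.03 without mouse 4. Sod2, the mitochondrial superoxide dismutase, was at -0.37 (unadjusted p = 0.305) and turned to 0.09 without it. After selenium 8 of 14 were positive (median 0.07), with Nfkb2, an NF-kB subunit, at 0.32 (unadjusted p = 0.443) and Cxcl2 at -0.59 (unadjusted p = 0.46). In mice given both agents against ptaquiloside mice without mouse 4, all 14 were negative, with a median of -0.17.

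The 28 inducing receptors and transcription factors gave 11 positive differences after ptaquiloside and 24 without mouse 4, with medians of -0.08 and 0.12, and 20 positive ones after selenium (median 0.14). Hlx, a transcription factor that favours Ifng expression in T cells, was at 0.57 after ptaquiloside (unadjusted p = 0.0583), 0.32 without mouse 4, and 0.52 after selenium (unadjusted p = 0.0813). Maf, a transcription factor that favours Il10 expression, was at 0.63 after ptaquiloside (unadjusted p = 0.123) and at 0.16 without mouse 4. Il21r, the interleukin 21 receptor, was at 0.42 after selenium (unadjusted p = 0.19).

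Of 17 genes of TGF-beta activation and signalling, 6 were positive after ptaquiloside (median -0.13), 7 without mouse 4 (median -0.02) and 8 after selenium (median -0.03). Tgfbi, a matrix protein induced by TGF-beta, was at -0.80 after ptaquiloside (unadjusted p = 0.105), -0.23 without mouse 4, and -0.50 after selenium (unadjusted p = 0.304). Ski, a repressor of this pathway, was at 0.57 after ptaquiloside (unadjusted p = 0.106) and 0.25 without mouse 4, and Thbs1, which activates latent TGF-beta, at -0.84 after selenium (unadjusted p = 0.154). Of the 9 genes for decay and stability of cytokine mRNA, 4 were positive after ptaquiloside (median -0.14), 7 without mouse 4 (median 0.05), and 6 after selenium (median 0.02). Khsrp, which binds AU-rich elements and promotes decay, was at 0.61 after ptaquiloside (unadjusted p = 0.0904), 0.39 without mouse 4, and 0.28 after selenium (unadjusted p = 0.427). Tia1, a translational repressor that binds such elements, was at -0.53 after ptaquiloside (unadjusted p = 0.141), -0.06 without mouse 4, and -0.23 after selenium (unadjusted p = 0.52).

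Of 11 genes for storage and release, 9 were negative after ptaquiloside (median -0.53) and 8 without mouse 4 (median -0.06), against 5 after selenium (median 0.02). Lyst, which shapes secretory lysosomes, was at -0.68 after ptaquiloside (unadjusted p = 0.115) and -0.15 without mouse 4, and Sdcbp at -0.73 (unadjusted p = 0.135) and -0.06. Adam17, the protease that sheds TNF, was at -0.29 after selenium (unadjusted p = 0.408), and Rhbdf2, which escorts it, at -0.30 (unadjusted p = 0.281). Among 33 other cytokine and chemokine genes tested, 16 were positive after ptaquiloside and 14 after selenium, with a median of -0.03 in both. Ccl6, a chemokine of myeloid cells, was at -0.92 after ptaquiloside (unadjusted p = 0.0416) and -0.48 without mouse 4, and Ltb, which encodes lymphotoxin beta, at -0.68 (unadjusted p = 0.0753) and -0.28. Ccl24, an eosinophil-attracting chemokine, was at -1.62 after selenium (unadjusted p = 0.00708, adjusted p = 1), and Lta, the gene for lymphotoxin alpha beside Tnf, at -0.60 (unadjusted p = 0.0667).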

How the data were processed

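Gene expression was measured in splenic NK cells of 20 mice on Agilent single-colour arrays. Spot intensities, per the file headers, are the background-subtracted processed signals that Feature Extraction 9.5.3.1 deposited, not scaled between arrays. Control and outlier flags (unit other) also came from the deposited files. The deposited table of log2 values per group, per its header, had a control and a ptaquiloside array replaced by the mean of their group's other mice. It was used as an alternative for differences only.

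From the processed signals, log2 minus each array's 75th percentile was computed, control spots and outlier flags were left out, and spots of 1 probe were averaged. The 25027 probes tested were those that exceeded background clearly on 5 or more of the 20 arrays. Gene names came from the files or, for 25097 probes, from RefSeq through the probe's accession. limma 3.58.1 in R 4.3.3 fitted 1 mean per group, with Benjamini-Hochberg adjustment at 0.05. Intervals cover 95%. The mouse number equals the slide in the headers, which pairs the mice across groups. Mice of the same number deviated together at a median r of 0.408 over 27 pairs, from -0.342 to 0.687. Other settings, including the slide as a block, are given in the closing section. Of the gene lists, the 2 genes with the smallest p in ptaquiloside and in selenium against control were named, and for each member the 3 genes with the highest r. For Csf1, a gene among them is not reported here. The members and lists were chosen with earlier results of these data known. Scripts were tested on simulated data with independent noise. There, limma recovered 14.9% of changes of 1 log2 unit between ptaquiloside and control with all 20 arrays. Without ptaquiloside mouse 4 it recovered 40.3%, so a difference that did not pass is not shown to be absent. The 5 arrays per group limit the precision.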

Additional observations from a re-analysis of the deposited data

Results flagged for a closer look

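In 3 of 48 combinations of probe and group, 1 mouse lay far from the other 4, by a gap over range above the critical value of 0.71. Chance gives this in about 1 in 20 groups. For the upstream Ifng probe A_51_P220976 in ptaquiloside mice the ratio was 0.763, with mouse 4 at 0.97 and the nearest mouse at 4.57. For Xcl1 in ptaquiloside mice it was 0.767, with mouse 4 at 0.68 and the nearest mouse at 4.19. Both values come from the dim array. For Csf1 in ptaquiloside mice it was 0.812, with mouse 1 at 2.30 and the nearest mouse at 2.96, on an array that did not stand apart.

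The Csf1 effect of ptaquiloside was above 0 on all 5 slides without selenium and below 0 on all 5 with it, a difference of -0.80 on the log2 scale. It was picked from 24 pairs of effects. Its test in the fit across all probes gave an unadjusted limma p of 0.0113 and an adjusted p of 0.997, so it did not pass.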

How the results depend on the processing

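The count of probes called stayed at 0 under every setting in every comparison, except that the interaction counted 0 to 1 when each array was left out in turn, the 1 arising without ptaquiloside+selenium replicate 4. With the slide as a replicate block the counts were 0 as well, and the pairing changed no call. Of 72 member differences, the sign differed from the reported one, with no call, in 8 with median scaling, 7 with quantile normalization, 8 with normexp and 13 with the block and without ptaquiloside mouse 4. It did not differ without the filter, with the filter on all 20 arrays, with 1 probe per gene or with the block alone. Median scaling moved the median of all probes for ptaquiloside against control to -0.25, and quantile normalization to -0.13. Leaving out arrays kept the sign in 1332 of 1440 values. The methods' t-test has no scaling between arrays. It kept 39 of 60 signs and, below an unadjusted p of 0.05, counted 611, 1095, 431, 281 and 265 of 43379 spots for ptaquiloside, selenium and both against control, both against ptaquiloside and both against selenium. Limma counted 421, 271, 57, 654 and 158 of 25027 probes. The authors' processed table kept 56 of 72 signs. Over probes its differences had an r with the reported ones of 0.111 for ptaquiloside against control. The r was 0.22 for both against ptaquiloside, 0.403 for the interaction, and 0.9, 0.941 and 0.996 in the other comparisons. In that table ptaquiloside minus control was positive at every member probe but that of Il10 (-0.27). The columns of that table are labelled by group only. They follow the scanner's log2 group means with an intercept of 19.9 to 20, of unknown origin. The slope was 0.988 to 1 in 3 groups and 1.11 for ptaquiloside. Medians of the columns are 22.84 to 23.7. Without 1 array the Csf1 interaction stayed between -0.945 and -0.688, and the Tnf difference of both agents from ptaquiloside between -1.51 and 0.08. Correlated gene pairs past the adjusted threshold numbered 12 of 45 over 19 pooled arrays, 18 with all 20 arrays, 32 with median scaling, 1 centred on slides (replicate block), and, in sets of slides chosen after seeing the data, 1 on slides 1 and 2 and 0 on slides 3 to 5.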

Other observations

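Members were also set against the mean level of marker genes of 10 cell types over the 19 mice, centred on slides, in 100 relations chosen after the values had been seen. Xcl1 followed the mean of 12 NK cell markers at a Pearson r of 0.761 (permutation p = 7e-05, adjusted 0.007) and a Spearman rho of 0.802 (permutation p = 9e-05, adjusted 0.009), and at 0.777 without the 2 mice farthest from the median. Tnf went against the neutrophil marker mean at an r of -0.671 (permutation p = 0.0245, adjusted 0.237) and a rho of -0.747 (permutation p = 0.00066, adjusted 0.033), and at an r of -0.87 without the 2 farthest mice. Csf1 went against the erythroid marker mean at an r of -0.654 (permutation p = 0.0125, adjusted 0.237) and a rho of -0.681 (permutation p = 0.00714, adjusted 0.178), with -0.536 without the 2 farthest mice. Il10 went with the macrophage and monocyte marker mean at 0.589 (permutation p = 0.0351, adjusted 0.27) and a rho of 0.563 (permutation p = 0.0435, adjusted 0.334), with 0.562 without the 2 farthest mice. Ifng went with the NK cell marker mean at an r of 0.716 (permutation p = 0.0158, adjusted 0.237). It went against the macrophage and monocyte marker mean at an r of -0.55 (permutation p = 0.0133, adjusted 0.237). Csf2 went with the platelet marker mean at an r of 0.616 (permutation p = 0.00577, adjusted 0.237). Other relations not named here also had an unadjusted permutation p below 0.05. Of the relations named, only that of Xcl1 passed the adjustment by its r.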
